A study of Mus musculus with 17 samples.

Results

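The genes described here are the subunits of the receptors for glutamate and GABA, the main excitatory and inhibitory transmitters of the mouse brain. They were chosen by name alone, as the genes whose symbols follow the Gria, Grin, Grik, Grid, Grm, Gabr and Gabbr nomenclature, with no use of any measured value. The rule matched 47 of the 35841 genes listed in any of the 4 deposited count tables, 26 for glutamate receptors and 21 for GABA receptors. With at least 10 counts in 2 libraries asked for, 40 of them could be used in each neuron table, and these were the same 40 genes in all tables. The hippocampus table, where 1 library sufficed, added Gabrr2 and so gave 41. The genes used in no table were Grm6, Grin3b, Gabra6, Gabrp, Gabrr1 and Gabrr3. Some of these are known mainly from the retina (Grm6, the GABA-A rho genes) or from cerebellar granule cells (Gabra6). The most that any of these 6 reached in a library was 15 counts, for Grin3b, and in set 2 Gabrp had no control values.

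Ionotropic glutamate receptors are cation channels built from 4 subunits. AMPA receptors (Gria genes) carry fast excitation, NMDA receptors (Grin genes) admit calcium and are needed for many forms of synaptic plasticity, and kainate receptors (Grik genes) act on both sides of the synapse. The delta receptors (Grid genes) work mostly as synaptic adhesion proteins. Metabotropic receptors (Grm genes) couple to G proteins: group I raises calcium from within the cell, and groups II and III lower cyclic AMP and often restrain transmitter release. GABA-A receptors are chloride channels of 5 subunits, most often alpha, beta and gamma, whereas GABA-B receptors are obligate pairs of Gabbr1 and Gabbr2 proteins that signal through G proteins.

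The study asked how ApoE, the lipid carrier that astrocytes secrete, acts on neurons. All libraries came from mice of the C57BL/6 strain, and 14 of the 17 were made from primary neurons cultured from brain. The neurons formed 7 groups of 2 libraries: neurons given ADM and their control, neurons given ApoE particles and their control (set 1), and a second series with control, ApoE particle and ApoE reconstituted particle (set 2). The remaining 3 libraries were hippocampi, 1 per group, from mice with a control shRNA and no FC, with the control shRNA and FC, or with an ApoE shRNA and FC. The labels spell out neither ADM nor FC, and they give no dose, duration or age, nor the origin, lipid content or ApoE isoform of the particles. Separate cultures for the replicates are not stated either, so every p-value measures only the spread between these libraries, which may be technical.

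Library totals ran from 14624082 to 19142353 counts. Pan-neuronal markers (10 genes, from Map2 to Syn1) summed to between 5422 and 8169 CPM (counts scaled to a common library size) in the neuron libraries, so the neuronal label held in all of them. The cultures also held glial transcripts: the 10 astrocyte markers summed to 713 to 1392 CPM in the ADM table, 3163 to 4529 in set 1 and 1104 to 1716 in set 2. The 10 microglia markers summed to 58.2 to 229 CPM in set 1. In set 2, 8 of them could be used and summed to at most 1.51 CPM, while Itgam and Tyrobp had no usable values. Replicates of the ADM table lay far apart. Their counts varied 23.42 (control) and 60.56 (treated) times as much as counting error alone would give, against 2.51 to 10.47 in set 1 and set 2. The second treated ADM library had a summed level of 1219 CPM for vessel and fibroblast markers, against 25.2 to 89.6 in the other 3 libraries of that table. Cldn5 was not listed in it. Since these are bulk RNA samples, fewer cells of a type and less RNA per cell cannot be told apart in any comparison.

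Promoter sequences show how varied these genes are at their starts. RefSeq windows of 300 bases on GRCm38.p6, from 250 before to 50 after a transcription start, were found for 32 of the 47 genes, in 39 windows. The stretches below are the 250 upstream bases for 4 genes that the results turn on: Gabra3 and Grm7, which fell in both ApoE particle experiments, and Grik2 and Grin2c, which moved in opposite directions in them. Capitals mark matches, on either strand, to any of the 8 motifs searched.
Gabra3, chrX:72656920-72657169, minus strand: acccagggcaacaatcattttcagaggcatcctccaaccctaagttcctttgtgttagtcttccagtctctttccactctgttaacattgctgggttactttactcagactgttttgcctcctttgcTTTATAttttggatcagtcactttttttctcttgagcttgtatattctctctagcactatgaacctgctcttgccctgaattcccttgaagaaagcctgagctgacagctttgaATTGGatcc
Grm7, chr6:110645262-110645511, plus strand: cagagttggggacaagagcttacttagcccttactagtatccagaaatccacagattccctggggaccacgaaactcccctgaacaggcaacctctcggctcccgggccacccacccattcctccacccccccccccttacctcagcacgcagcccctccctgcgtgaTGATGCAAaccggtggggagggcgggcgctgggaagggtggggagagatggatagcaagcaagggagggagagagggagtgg
Grik2, chr10:49788755-49789004, minus strand: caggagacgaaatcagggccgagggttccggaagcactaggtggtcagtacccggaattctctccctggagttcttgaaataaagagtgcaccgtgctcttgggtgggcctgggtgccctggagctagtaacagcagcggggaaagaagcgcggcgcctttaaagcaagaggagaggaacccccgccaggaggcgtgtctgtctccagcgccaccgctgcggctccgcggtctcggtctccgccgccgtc
Grin2c, chr11:115267244-115267493, minus strand: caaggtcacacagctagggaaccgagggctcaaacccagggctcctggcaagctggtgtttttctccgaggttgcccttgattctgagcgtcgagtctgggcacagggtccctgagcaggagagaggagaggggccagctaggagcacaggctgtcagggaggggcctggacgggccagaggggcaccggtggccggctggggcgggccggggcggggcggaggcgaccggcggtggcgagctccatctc

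The Gabra3 window holds the letters of a TATA box (TATAAA) and of a CCAAT box (CCAAT), both read on the opposite strand, and the Grm7 window holds those of an ATF4 element (TGATGNAA). No motif match fell in the printed stretches of Grik2 and Grin2c. Over all subunit windows, 16 of 39 held CCAAT (14 genes), against 37.4% of all 32851 windows of the same length. TATAAA was in 4 of 39 (3 genes), against 13.6%. The ATF4 element was in 3 of 39 subunit windows (2 genes) and in 3.97% of all windows. Some windows of the same gene overlap, so 1 site can be counted in 2 windows. A cyclic AMP response element (TGACGTCA) was in 0 of 39, against 1.79% of all windows, an AP-1 element (TGANTCA) in 2, against 7.81%, and an E-box (CAGCTG) in 1, against 16.3%. An ISRE (GAAANNGAA) was in 4, against 8.56%, and an SREBP element (TCACCCCA) was in 1, Grm8, against 1.56%. These are matches of letters only, and none of these strings contains another. Base composition differed widely among the genes: the windows ranged from 38.3% to 82% G and C with a median of 59.7%, and the median of all windows was 52.7%. Among the windows printed above, Gabra3 had 43%, Grm7 61%, Grik2 64.7% and Grin2c 70%.

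The levels of the subunits set the scale for what follows. They are given as CPM per kb of exon, as mean ± SD over the 2 control libraries of set 2, because only a level per length can be compared between genes. Among AMPA subunits, Gria1 (49.6 ± 0.786) and Gria2 (48.5 ± 0.618), the subunit that makes the channel impermeable to calcium, stood highest and Gria3 (6.04 ± 0.353) lowest. Of the NMDA subunits, Grin2b, the GluN2 subunit of young neurons, led with 35.3 ± 0.287, and Grin2d was lowest at 0.807 ± 0.179. Kainate subunits ran from Grik5 (34.5 ± 0.694) down to Grik1 (2.96 ± 0.0264), and the delta subunit Grid1 stood at 9.59 ± 0.26. Grm5 (25.4 ± 0.736) was the most abundant metabotropic glutamate receptor and Grm8 (0.719 ± 0.0454) the least. In group II, Grm3 (10.4 ± 1.07) and Grm2 (9.13 ± 1.29) did not differ beyond their spread.

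On the GABA side, the GABA-B genes Gabbr1 (60.3 ± 2.64) and Gabbr2 (28.3 ± 1.47) were both abundant. Gabra5 (34.3 ± 3.67) was the highest alpha subunit. The beta subunit Gabrb1 reached 10.4 ± 0.732 and the gamma subunit Gabrg1 1.80 ± 0.2. The extrasynaptic subunit Gabrd reached 1.18 ± 0.00751, and Gabre 0.262 ± 0.133. This order was not identical in every table: in the ADM controls the mean of Gria2 (68.9 ± 16.1 CPM per kb) was above that of Gria1 (58.2 ± 7.82), a difference within their spread.

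Subunit make-up differed between cultures and hippocampus, as the plot of family shares shows. As a share of the 4 GluN2 genes per kb, Grin2b made up 91.9 and 94.4% in the ADM controls, 80.7 and 87.1% in the set 1 controls and 88.5 and 88.5% in the set 2 controls, but 44.7% in the hippocampus of the control without FC. There Grin2a took 24.9% and Grin2c 25.3%. Gria1 held 65.5% of the AMPA genes in that hippocampus, against 33.8 to 49.1% in the 6 control cultures. These shares were taken within each library, so library scaling does not affect them. Each hippocampus group had 1 library and hippocampus holds many glia, so no test was made.

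**Figure D1:**
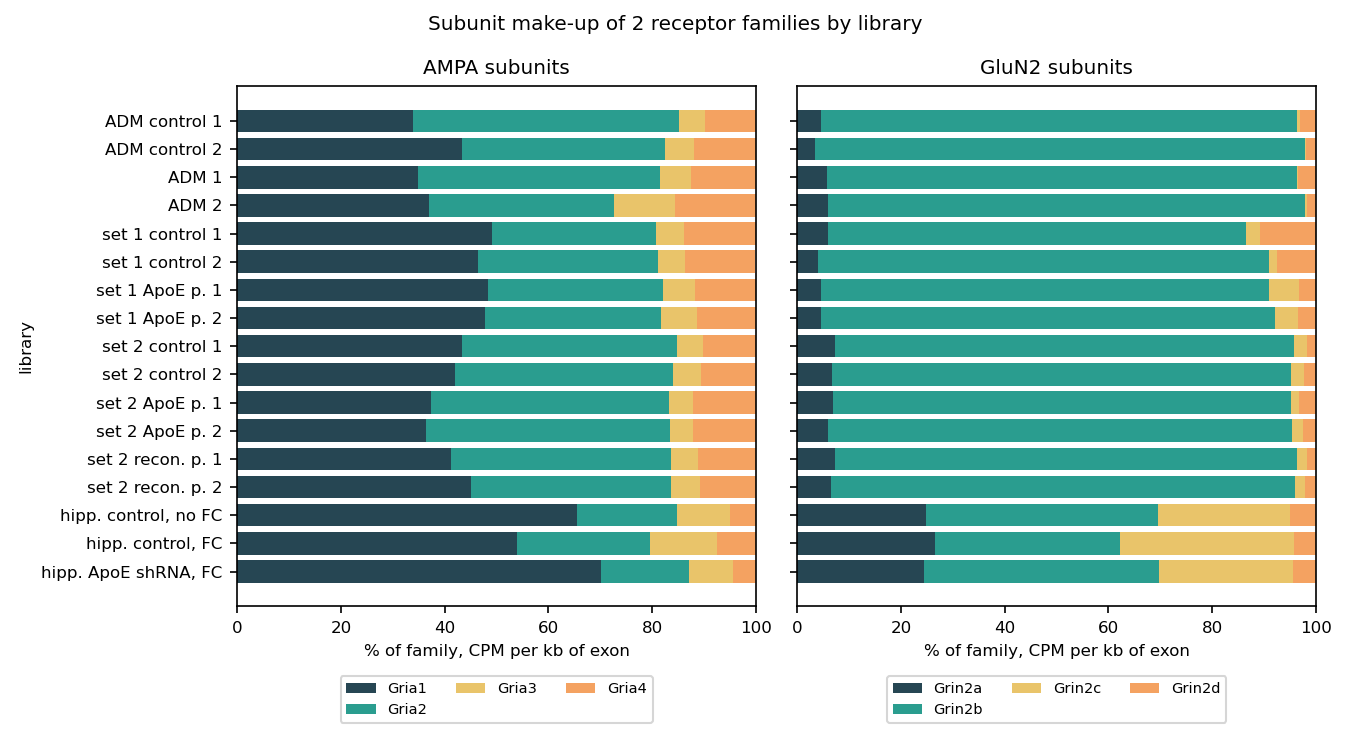
Share of each subunit in its family (%, from CPM per kb of exon) for AMPA and GluN2 genes, 1 bar per library. Grin2b fills most of the GluN2 bar in every culture library and 35.7 to 45.3% in the 3 hippocampus libraries, where Grin2a and Grin2c take larger shares.

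Receptor subunit transcripts were lower across most classes in the ApoE particle neurons of set 1. Of 40 genes tested, 24 fell and 1 rose at an adjusted p under 0.05 (62.5%), where 36.2% of all 16589 genes were called, 17.4% lower and 18.8% higher. The median log2 fold change of the 40 was -0.51, against -0.01 for all genes, and 37 of 40 values were negative. Glutamate receptors (16 of 24 lower, 1 higher) and GABA receptors (8 of 16 lower) had medians of -0.51 and -0.52.

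Gabra3, an alpha subunit prominent in the developing brain (X:72432681-72656848, mm10), had the lowest adjusted p among the subunits. Its level was 90.7 and 96.9 CPM in the control libraries and 37.7 and 35.7 CPM with particles. The groups lay far apart, and the log2 fold change was -1.35 ± 0.09 (SE, adjusted p = 2.70e-06). Grm7, a presynaptic group III receptor (chromosome 6, 110645581 to 111567230), went from 73.1 and 73.6 CPM to 31.9 and 31.2 CPM, a change of -1.22 ± 0.09 (adjusted p = 4.20e-06). Grin2d, an NMDA subunit common in interneurons (chromosome 7, 45831883 to 45878378), had 21.5 and 22.3 CPM in controls and 5.90 and 5.73 CPM with particles. That is the largest fall of any subunit in set 1, with a log2 fold change of -1.91 ± 0.15 (adjusted p = 5.04e-06), and 9.7% of its exonic bases overlap the opposite-strand gene Gm45441.

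Gabra5, whose receptors sit largely outside synapses, had 119 and 124 CPM in controls and 72.0 and 72.3 CPM with particles (log2 -0.75 ± 0.08, adjusted p = 5.49e-05). Grm2, a presynaptic autoreceptor, had 25.6 and 24.6 CPM and then 11.8 and 12.2 CPM (log2 -1.06 ± 0.13, adjusted p = 8.45e-05). No particle library reached a control library for any of these genes, as for 67.7% of all genes in this comparison, whose groups did not overlap in either direction. Log2 fold changes of other subunits that fell lay between -0.25 (Grik5) and -0.90 (Gabrd), and they included the obligate NMDA subunit Grin1 (-0.66), Gria1 (-0.37), Gria2 (-0.36), Gria4 (-0.64), Grm5 (-0.75) and both GABA-B genes (Gabbr1 -0.60, Gabbr2 -0.68).

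The only subunit that rose in set 1 was Grin2c, which in forebrain is expressed in astrocytes as well as neurons. It had 3.96 and 3.56 CPM in controls and 7.56 and 5.51 CPM with particles (log2 0.79 ± 0.23, adjusted p = 0.02). This call was lost in DESeq2 (log2 0.80) and without the first particle library (0.56). Another 15 genes were not called. Of these, Gria3 (-0.08 ± 0.1), Gabra4 (0.04 ± 0.09), Gabrb1 (-0.11 ± 0.11), Gabra2 (-0.15 ± 0.09) and Grm8 (0.06 ± 0.18) had values near 0.

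Markers of cell types also changed in set 1. Pan-neuronal and excitatory ones were mostly lower, and those of astrocytes, microglia and proliferating cells mostly higher. The pan-neuronal sum was 7830 and 8169 CPM in controls and 5635 and 5422 CPM with particles, with 9 of 10 genes lower and a median log2 of -0.76. Of the excitatory neuron markers 7 of 8 were lower, and of the inhibitory ones 6 of 12, with 2 higher. Astrocyte markers summed to 3436 and 3163 CPM and then 4529 and 4340 CPM (8 of 10 higher), microglia markers to 70.5 and 58.2 and then 229 and 226 CPM (8 of 9 tested higher), and proliferation markers to 257 and 240 and then 707 and 821 CPM (10 of 10 higher). Their part in the fall of the subunits was not tested. All subunits together summed to 0.661 and 0.76 of the pan-neuronal sum in the control libraries and to 0.735 and 0.735 of it with particles, so on that scale the groups overlapped. A log2 fold change below the pan-neuronal median was found for 7 of 40 subunits, among them Grin2d, Gabra3, Grm7 and Grm2. The pan-neuronal sum fell less than that median, so the 2 scales differ. Both the ratio and the count of 7 were added after the values had been seen, and no such count was made over all genes.

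**Figure D2:**
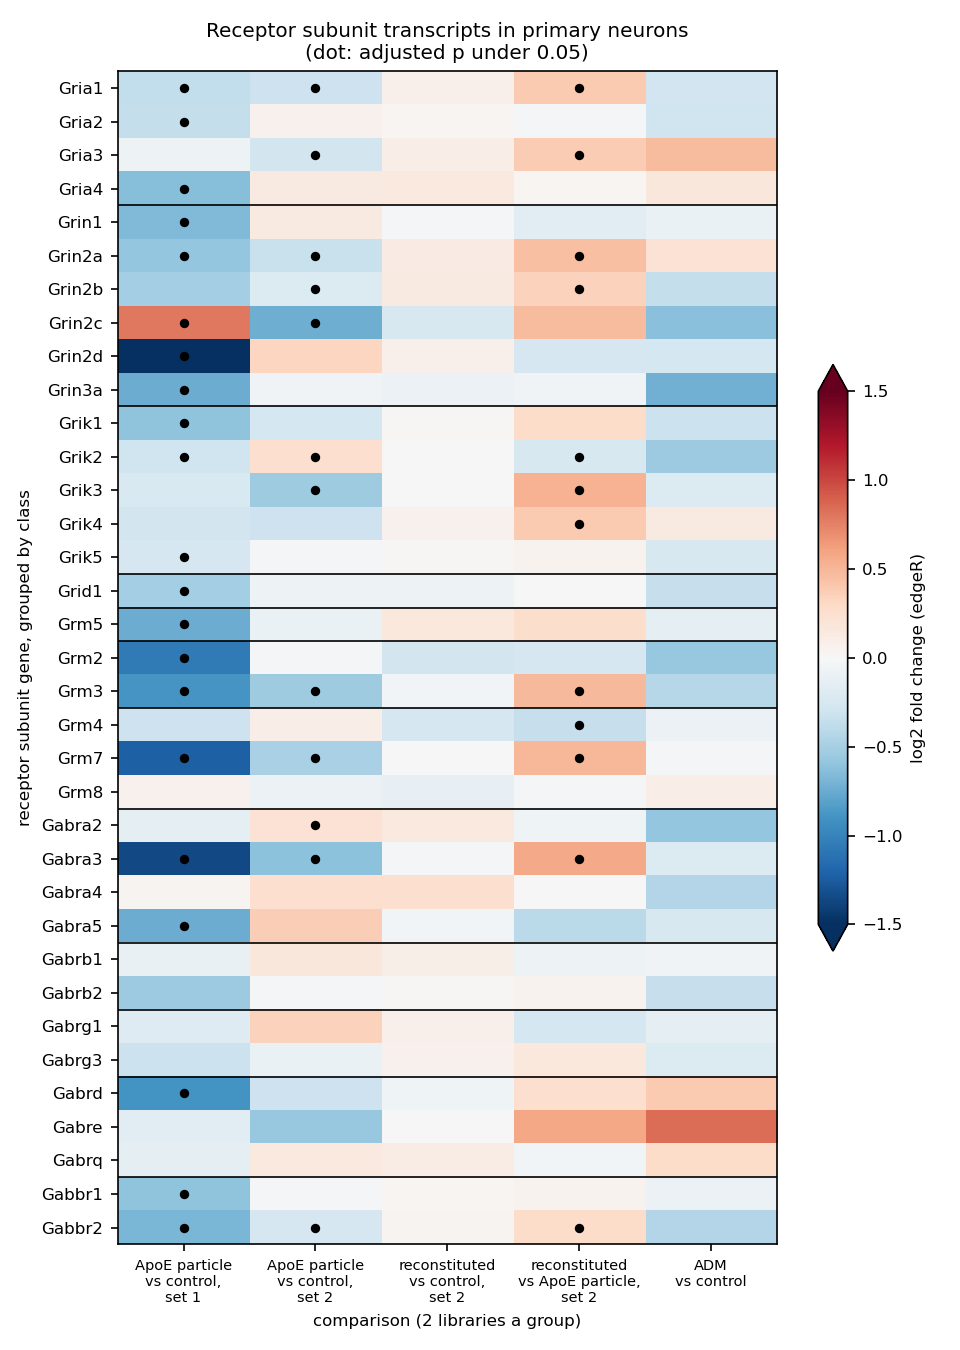
Log2 fold change of the subunit genes reported (rows, grouped by class) in 5 neuron comparisons (columns, 2 libraries a group), with a dot where the adjusted p was under 0.05. Dots in the set 1 column mark lower values except for Grin2c, those in the set 2 particle column lie in both directions, and the reconstituted against control and ADM columns have none.

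Fewer subunits passed the test with the ApoE particle in set 2, and they went in both directions. Of the 40 genes, 10 fell and 4 rose (35%), where 21.9% of 16520 genes were called, 11.9% lower and 9.96% higher, and the median log2 fold change was -0.03. With scaling by library totals the split was 10 lower and 7 higher. Most of the genes that fell were glutamate receptors (8 of 24, with 2 higher), while GABA receptors had 2 lower and 2 higher of 16. The 3 comparisons within set 2 share libraries pairwise and are not independent of each other.

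Grik3, a kainate subunit, had 71.6 and 74.0 CPM in controls and 51.0 and 50.1 CPM with particles, a log2 fold change of -0.53 ± 0.07 (adjusted p = 5.48e-06). Gabra3 had 36.8 and 36.2 CPM against 21.8 and 26.1 CPM (-0.61 ± 0.1, adjusted p = 8.34e-05). Gria1, the AMPA subunit inserted at synapses during potentiation, had 303 and 296 CPM against 249 and 236 CPM (-0.31 ± 0.05, adjusted p = 0.000103). For these 3 genes every particle library lay below every control library, as for 30.8% of all genes. Grm7 fell from 49.0 and 43.4 CPM to 32.3 and 33.4 CPM (-0.49 ± 0.09, adjusted p = 0.000181). Grm3, a group II receptor of neurons and astrocytes, fell from 29.2 and 33.9 CPM to 20.7 and 22.9 CPM (-0.53 ± 0.1, adjusted p = 0.000551). Grin2b fell from 881 and 871 CPM to 762 and 767 CPM (-0.20 ± 0.04, adjusted p = 0.0014). These groups did not overlap either, and the same direction passed the test in Gria3 (-0.28), Grin2a (-0.33), Grin2c (-0.73) and Gabbr2 (-0.25).

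Grik2 and Gabra2 were among the subunits that rose in set 2. Grik2 had 103 and 104 CPM against 124 and 122 CPM (0.25 ± 0.06, adjusted p = 0.0032). Gabra2, an alpha subunit of forebrain synapses, had 103 and 105 CPM against 123 and 118 CPM (0.22 ± 0.06, adjusted p = 0.0139). In both genes, as in 30% of all genes, the particle libraries stood above the controls. The Gabra2 call was lost without either control library or the first particle library (0.19 to 0.23).

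Markers of other cells also moved in set 2. Those of astrocytes, proliferating cells, and vessels and fibroblasts moved mostly in the opposite direction to set 1. The pan-neuronal sum was 7060 and 7180 CPM in controls and 6738 and 6801 CPM with particles (3 of 10 lower, 1 higher). Astrocyte markers summed to 1713 and 1608 CPM and then 1104 and 1210 CPM (8 of 10 lower, 1 higher), and vessel and fibroblast markers to 206 and 136 CPM and then 51.9 and 89.1 CPM. In set 1 the vessel and fibroblast sum was 119 and 85.6 CPM in controls and 353 and 388 CPM with particles. Grin2c, Grm3 and Gabrg1 are among the subunits that glia also express. Grin2c fell in set 2 and rose in set 1, Grm3 fell in both sets, and Gabrg1 was called in neither. The part of the other cells in these values was not tested. Summed over all subunits, the ratio to the pan-neuronal sum was 0.68 and 0.682 in controls and 0.714 and 0.686 with particles.

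**Figure D3:**
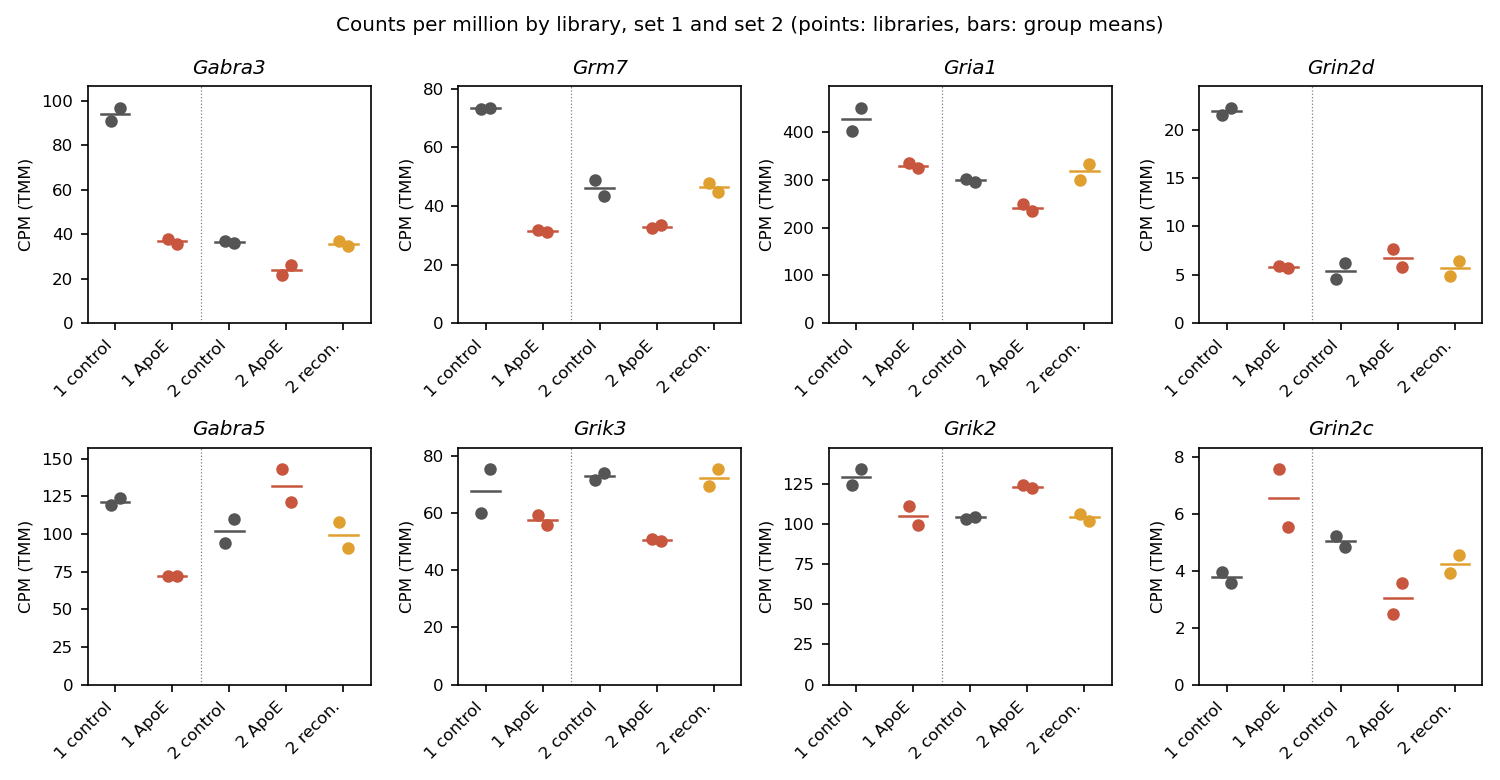
CPM by library (points) and group mean (bars) for 8 subunits in the control and ApoE particle libraries of set 1 and the control, ApoE particle and reconstituted particle libraries of set 2. Gabra3, Grm7 and Gria1 were lower with the ApoE particle in both sets, whereas Grik2 was lower in set 1 and higher in set 2.

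The effect of the ApoE particle therefore differed between the sets for many subunits, which the interaction term tested directly on 8 libraries. It was called for 21 of 40 subunits (52.5%), where 30.8% of 17230 genes were called, 14.6% higher and 16.2% lower. For 20 of the 21 the effect was higher, that is less negative or positive, in set 2. Gabra5 had a difference of 1.09 ± 0.13 (adjusted p = 1.58e-05). The NMDA subunits Grin2d (2.21 ± 0.27) and Grin1 (0.76 ± 0.1) and the AMPA subunit Gria4 (0.74 ± 0.11) also differed in this direction. Grin2c alone differed the other way (-1.55 ± 0.34, adjusted p = 0.00294). The set itself is a term of this model, and the pan-neuronal markers differed the same way as the subunits did, with a median of 0.61 and 7 of 10 higher, against 0.40 for the subunits.

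The genes Gria1, Grin2a, Grm3, Grm7, Gabra3 and Gabbr2, 6 in all, fell in both sets. That is 25% of the 24 that fell in set 1 and 60% of the 10 that fell in set 2. Of all 40 subunits, 10 fell in set 2 and 24 in set 1, which are the same shares of 25% and 60%. The overlap among the subunits was thus what unrelated calls would give. Over all genes tested in both sets, 509 fell in both, which is 17.9% of those lower in set 1 and 26.4% of those lower in set 2. Grik2 fell in set 1 and rose in set 2, as 14.9% of all genes lower in set 1 did. Grin2c did the reverse, as did 21.3% of all genes higher in set 1. No subunit rose in both sets, and of all genes higher in set 1, 6.14% also rose in set 2. Grin2c was the only subunit higher in set 1, so these shares say nothing about the subunits as a group. Called in neither set were 10 of 40 subunits and 8237 of 15760 genes. The interaction was called for Grm7 (0.69), Gabra3 (0.72) and Gabbr2 (0.41), whose falls were smaller in set 2, and not for Gria1, Grin2a and Grm3.

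**Figure D4:**
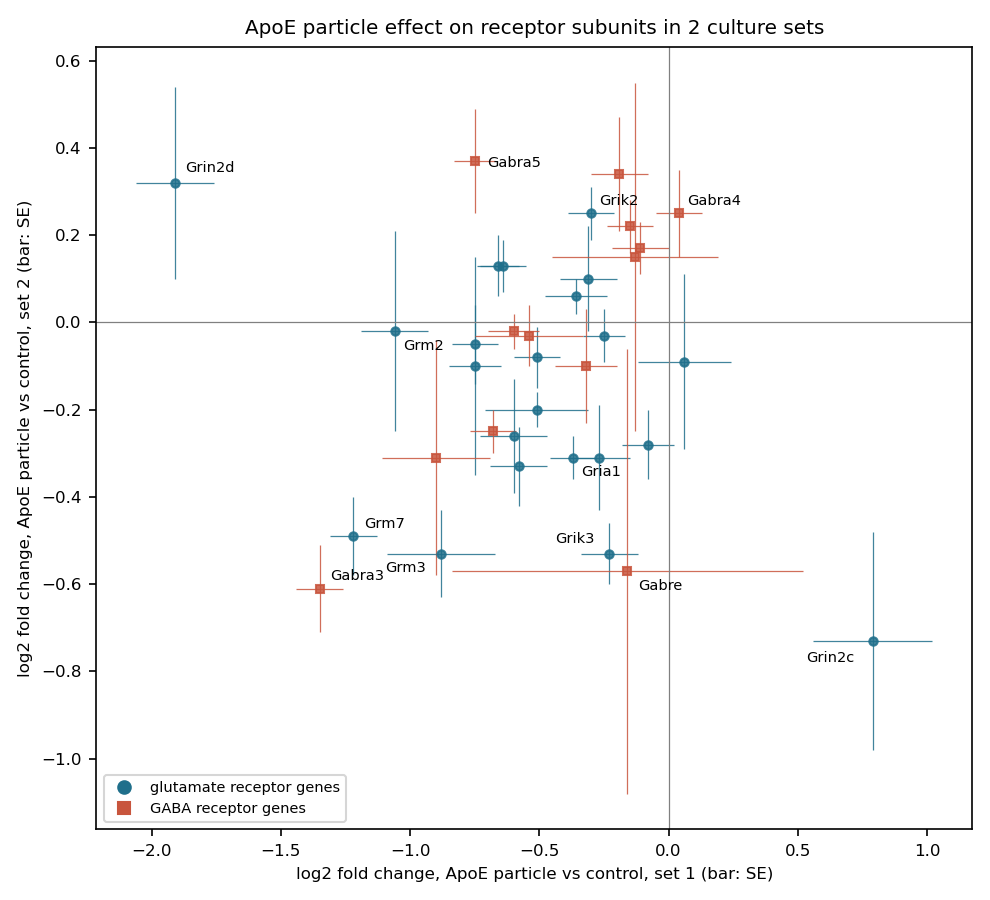
Log2 fold change of each subunit reported with the ApoE particle in set 1 (x axis) and set 2 (y axis), with standard errors; circles are glutamate and squares GABA receptor genes. Gabra3, Grm7 and Grm3 lie low on both axes, Grin2d and Gabra5 are negative in set 1 and positive in set 2, and Grin2c is the point at the lower right.

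Several GABA-A genes lie side by side in the genome, and values of some of these clusters are given here for the genes reported. On chromosome 5 (70751047 to 72149037, mm10) the 4 genes Gabrg1, Gabra2, Gabra4 and Gabrb1 had log2 fold changes of -0.19, -0.15, 0.04 and -0.11 in set 1, none called. On chromosome 7 Gabra5 (-0.75) fell, while Gabrg3 (-0.32) was not called. Gabra3 shares its X cluster (72255999 to 72842602) with Gabre and Gabrq, which had at most 45 counts in any set 1 library and values of -0.16 ± 0.68 and -0.13 ± 0.32. In set 2 the chromosome 5 genes had values of 0.34, 0.22, 0.25 and 0.17, of which only Gabra2 was called. No test was made of the clusters, which were looked at after the values were known.

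Neurons given the ApoE reconstituted particle had subunit levels close to those of their controls. None of the 40 subunits and 0% of 16520 genes were called by edgeR, and DESeq2 called 0 subunits and 0 genes. At an unadjusted p under 0.05, 4 of the 40 subunits passed in edgeR and 2 in DESeq2, against 4.72% of all genes in edgeR. The log2 fold changes lay between -0.28 (Grm2) and 0.25 (Gabra4), with a median of 0.03 and standard errors from 0.04 to 0.48. The smallest unadjusted p was that of Grin2b, which had 881 and 871 CPM in controls and 931 and 1004 CPM with the reconstituted particle (0.14 ± 0.04). The test does not show that the particle had no effect.

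Set against the ApoE particle directly, the reconstituted particle left 10 subunits higher and 4 lower of 40 (35%), where 20.1% of 16520 genes were called, 11.3% higher and 8.8% lower. Grin2b had 931 and 1004 CPM with the reconstituted and 762 and 767 CPM with the ApoE particle, a difference of 0.34 ± 0.04 (adjusted p = 1.80e-06). Gria1 had 301 and 334 CPM against 249 and 236 CPM (0.39 ± 0.05, adjusted p = 4.24e-06). Grik3 had 69.3 and 75.3 CPM against 51.0 and 50.1 CPM (0.52 ± 0.07, adjusted p = 7.61e-06). These reconstituted particle libraries were all above the ApoE particle libraries, as in 29.8% of all genes. Grm7 had 48.0 and 44.9 CPM against 32.3 and 33.4 CPM (0.50 ± 0.09, adjusted p = 0.000168), Gabra3 36.8 and 34.6 CPM against 21.8 and 26.1 CPM (0.57 ± 0.1, adjusted p = 0.000174), and Gabbr2 196 and 191 CPM against 155 and 164 CPM (0.28 ± 0.05, adjusted p = 0.000477). Gria3, Grin2a, Grik4 and Grm3 were the other subunits higher with the reconstituted particle.

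Lower with the reconstituted than with the ApoE particle was Grik2, with 106 and 102 CPM against 124 and 122 CPM (-0.24 ± 0.06, adjusted p = 0.00399). Grm4 had 14.4 and 14.6 CPM against 18.8 and 18.1 CPM (-0.35 ± 0.12, adjusted p = 0.0497). In neither gene did the libraries of the particles overlap, and 29% of all genes were lower without overlap. The Grm4 call was lost in DESeq2, without a count filter, with a replicate block, with only the groups compared and without any of the 6 libraries (-0.32 to -0.37). Astrocyte markers summed to 1630 and 1716 CPM with the reconstituted particle against 1104 and 1210 CPM with the ApoE particle (8 of 10 higher), and their part was not tested.

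Without a term for the replicate number, ADM gave no call among the subunits. None of the 40 and 0% of 16311 genes were called by edgeR, and DESeq2 called 0 subunits and 325 genes. At an unadjusted p under 0.05, 4 subunits passed in each tool, against 8.69% of all genes in edgeR. Of the 40 values, 32 were negative, with a median of -0.23 against 0.01 for all genes, and standard errors reached 0.82. The 4 genes in edgeR were Gabbr2 (-0.44 ± 0.12), Grin3a (-0.72 ± 0.21), Grm2 (-0.57 ± 0.18) and Grin2b (-0.36 ± 0.13), with adjusted p of 0.558 to 0.567. The pan-neuronal sum was 7443 and 8169 CPM in controls and 6076 and 6690 CPM with ADM, and its part was not tested. The absence of calls does not show that ADM had no effect. In simulated data, the ADM fit recovered 14.8% of changes of size 1 on the log2 scale. For the ApoE particle the share was 95.7% in set 1 and 90.5% in set 2. The changes were placed only in genes above a minimum mean count, and none was smaller than 1. These shares therefore do not hold for weakly expressed subunits or for smaller changes.

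Other genes of the 2 transmitter systems also changed in set 1, where 17.4% of all genes were lower and 18.8% higher. Of 15 AMPA receptor auxiliary and assembly genes, 11 fell, led by Cnih3 (-1.24), Cacng3 (-0.88) and Cacng2 (-0.70), which escort AMPA receptors to the membrane and tune their gating. Among 12 partners of NMDA, kainate and delta receptors 9 fell and 1 rose, with Cbln1 (-1.37), a ligand of delta receptors, and the scaffolds Dlg3 (-0.59) and Dlg2 (-0.64) first. Partners of metabotropic receptors had 6 lower and 1 higher of 10: Elfn1 (-1.15) and Ncdn (-0.67) fell and the scaffold Homer3 (1.11) rose. For GABA-A clustering and trafficking 10 of 14 fell, first Shisa7 (-0.76), Nlgn2 (-0.55) and Gabarapl1 (-0.49). Of 7 GABA-B partners 4 fell and 1 rose, and the potassium channels Kcnj3 (-0.93) and Kcnj9 (-0.76) and the auxiliary subunit Kctd12 (-0.54) were the most significant. Genes of transmitter synthesis, transport and breakdown had 13 lower and 3 higher of 20, with the vesicular glutamate transporter Slc17a7 (-1.77) and the neutral amino acid transporter Slc1a4 (-0.89) among those that fell. Among 3 glycine receptor subunits Glrb (-0.65) and Glra2 (-0.47) fell.

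With the ApoE particle in set 2, where 11.9% of all genes were lower and 9.96% higher, the same lists had calls in both directions. Auxiliary AMPA genes had 3 lower and 1 higher of 15: Shisa6 (-0.80) and Cacng5 (-0.91) fell and Cacng3 (0.68) rose. The NMDA, kainate and delta partners had 3 of 12 lower, Cbln4 (-0.80), Neto1 (-0.37), which modulates kainate receptors, and the scaffold Dlg4 (-0.17). Among metabotropic partners Shank2 (-0.30) and Shank1 (-0.22) fell and Homer1 (0.21) rose, of 10. GABA-A clustering and trafficking genes had 3 lower and 2 higher of 14, with the motor Kif21b (-0.55) and the adaptor Trak1 (-0.30) lower and gephyrin, Gphn (0.28), the main scaffold of inhibitory synapses, higher. No GABA-B partner of 7 was called. Of 20 synthesis and transport genes 5 fell and 4 rose, among them Slc17a7 (-1.09) and Slc1a4 (0.52). The genes of the GABA-making enzymes went in opposite directions, Gad2 (-0.37) lower and Gad1 (0.21) higher, the latter named after its value was seen. Glrb (0.39) was the glycine receptor subunit of 3 that rose. Between the reconstituted and the ApoE particle these lists had, in the same order, 3, 5, 2, 2, 0, 5 and 0 genes higher and 1, 0, 0, 1, 0, 4 and 2 lower, against 11.3% of all genes higher and 8.8% lower. Neither ADM nor the reconstituted particle against control had a call in any list. Gene lists for transport and synthesis share members with the neuron and astrocyte marker lists.

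In the hippocampus, the level of Apoe itself was read beside the shRNA label. It stood at 1697 CPM in the control without FC, 2797 CPM in the control with FC and 1384 CPM with ApoE shRNA and FC. The log2 ratio was -1.02 (95% exact binomial interval -1.04 to -0.99) between the shRNAs with FC, and -0.29 (-0.32 to -0.27) against the control without FC. With 1 library a group there was no replicate check and no test, so a gene was counted when its CPM differed by over 1.5-fold and the library with more RNA of it had 100 counts or more. The intervals cover counting error only. The control with FC also stood apart in cell markers: microglia markers summed to 1538 CPM there, against 344 without FC and 260 with ApoE shRNA, astrocyte markers to 8283 CPM, against 6229 and 5072, and pan-neuronal markers to 6338 CPM, against 7338 and 7380. Their part in the Apoe ratios above and in the ratios that follow was not tested, so the Apoe values do not verify the shRNA label.

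With FC against no FC, 6 of 38 subunits were past 1.5-fold, 1 higher and 5 lower, where 16.7% of 12510 genes were, 12.3% higher and 4.46% lower. Grik4, a kainate subunit of hippocampal pyramidal cells, had 35.3 CPM with and 73.4 CPM without FC (log2 ratio -1.06, interval -1.20 to -0.92). Grin3a, a juvenile NMDA subunit, had 33.4 and 63.7 CPM (-0.93), and Gria1 554 and 1014 CPM (-0.87, interval -0.91 to -0.84). Gabra5 had 91.2 and 139 CPM (-0.61). Grm4 was the gene that was higher, with 30.5 CPM against 16.3 CPM (0.90).

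ApoE shRNA against control shRNA, both with FC, put 8 of 38 subunits past 1.5-fold, 5 higher and 3 lower, where 22.3% of 12474 genes were, 4.46% higher and 17.9% lower. With TMM scaling the split was 6 higher and 2 lower. This comparison uses the same control library as the one with and without FC, so a low or high value in that library enters both with opposite sign. Grik4 (76.9 against 35.3 CPM, 1.12), Gria1 (1110 against 554 CPM, 1.00), Grin3a (55.1 against 33.4 CPM, 0.72), Gabra5 (140 against 91.2 CPM, 0.62) and Grin1 (443 against 290 CPM, 0.61) were higher. Gabrg1, a gamma subunit also found in glia, was lower with 10.1 against 18.8 CPM (-0.90, interval -1.16 to -0.64), as was Gabra4 (63.8 against 96.9 CPM, -0.60).

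The libraries of ApoE shRNA with FC and control without FC, which leave out that shared control, differed in 4 of 38 subunits, where 7.24% of 11980 genes did, 1.14% higher and 6.09% lower. Gabrg1 (10.1 against 21.9 CPM, -1.11), Gabra2 (55.1 against 99.4 CPM, -0.85) and Grm3 (31.4 against 48.8 CPM, -0.64) were lower and Grm4 (27.8 against 16.3 CPM, 0.77) was higher. Gria1, Grik4, Grin3a and Gabra5 were within 1.5-fold here, with log2 ratios of 0.13, 0.07, -0.21 and 0.01.

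**Figure D5:**
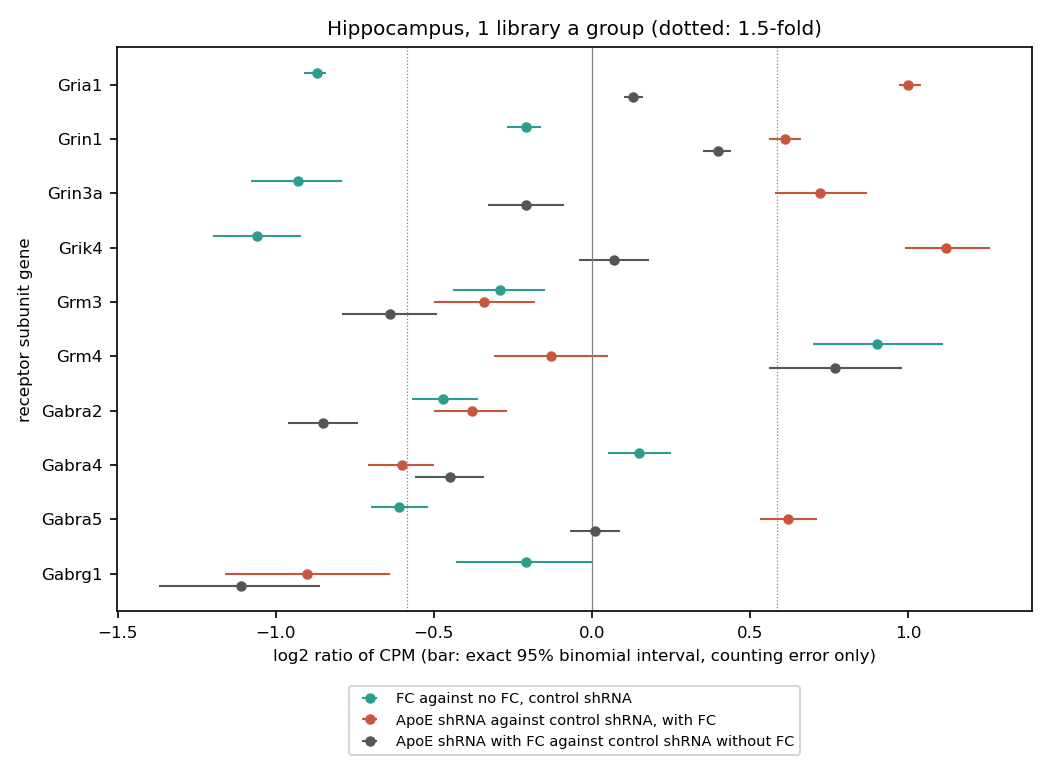
Log2 ratio of CPM for the subunits reported that were past 1.5-fold in any hippocampus comparison, with exact 95% binomial intervals; each group is 1 library. Gria1, Grik4, Grin3a and Gabra5 lie to the left with FC against no FC, to the right with ApoE shRNA against control shRNA, and near 0 between the libraries that leave out the control with FC.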

How the data were processed

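Gene counts of 17 libraries were read from 4 deposited tables. Each holds deposited counts, not normalized: all values are whole and library sums differ. Per the labels, total RNA in 2 μg portions went into the NEBNext Ultra RNA kit. Tools in the submitters' processing notes are HTSeq 0.6.0, HISAT2 2.1.0 and Bowtie2 2.2.3, with the build mm10. Which tool did what, and whether strand was used, is not given in the sources used here, so reads of a gene and of an overlapping gene on the other strand cannot be told apart (Grin1 and Grin1os share 13.5% of Grin1's exonic bases). All per-sample columns were used, and in set 2 the 1489 genes without control values stayed out.

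Each neuron comparison was fitted over all genes with at least 10 counts in 2 libraries by edgeR 4.0.16 (R 4.3.3, TMM scaling, robust quasi-likelihood F test, Benjamini-Hochberg over all genes, threshold 0.05); the 3 groups of set 2 shared a fit, and the set difference was an interaction term. Fold changes are log2 with SE. CPM of neurons were TMM-scaled, those of hippocampus used library totals, with a prior of 0.5 counts in ratios. Levels per kb used GENCODE exons of mm10, which may differ from the transcripts expressed. The fitting was tested on simulated data. The members were set by name; the lists and rules were chosen with earlier results of these data known. Some members are not reported here. Every library value is given for up to 6 called members per direction with the lowest adjusted p, other lists by up to 3 called genes, and the hippocampus by up to 5 per direction. DESeq2 1.42.0, other scalings and filters, a replicate block and leaving out each library were the alternatives.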

Additional observations from a re-analysis of the deposited data

Results flagged for a closer look

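The response of the subunits to the ApoE particle differed between the culture sets. The difference itself was tested, as the effect in set 2 minus that in set 1, and 21 of 40 subunits passed at an adjusted p under 0.05 in edgeR (52.5%), against 30.8% of 17230 genes. The pan-neuronal markers shifted the same way as most subunits, with a median of 0.61 and 7 of 10 higher. Among the 21 subunits were Gabra5 (1.09 on the log2 scale, from -0.75 in set 1 to 0.37 in set 2) and Grin2d (2.21, from -1.91 to 0.32). Grin1 (0.76, from -0.66 to 0.13) and Gria4 (0.74, from -0.64 to 0.13) were also among these subunits. The set 2 values of these 4 genes did not pass the test on their own. Grin2c differed the other way (-1.55, from 0.79 to -0.73). The sets had different controls: Grin2d stood at 21.5 and 22.3 CPM in the set 1 controls and at 4.53 and 6.22 CPM in those of set 2, and Gabra3 at 90.7 and 96.9 CPM against 36.8 and 36.2 CPM. Those tables were scaled separately, so these levels are set side by side without a test. Proliferation markers rose in set 1 (10 of 10) and had 5 lower and 1 higher of 10 in set 2.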

How the results depend on the processing

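Among the counts of called subunits, 84 values under the alternatives stayed within 1.5 times the count reported, and 4 did not. With a replicate block the ADM comparison had 1 call in place of 0, Gabra2 (-0.59), and asking for a 2-fold difference in the hippocampus left 1 subunit with FC against no FC, 2 between the shRNAs with FC, and 1 between ApoE shRNA with FC and control without FC. Leaving out each library in turn gave 17 to 32 calls in set 1, 10 to 18 for the ApoE particle in set 2, 11 to 17 between the particles, 17 to 25 for the set difference and 0 for ADM and for the reconstituted particle. The replicate block gave 29, 14, 13, 21 and 0 calls in the same order, without ADM. Same-numbered ADM libraries deviated together (correlation 0.58 over 14581 genes), while the other pairs had -0.10 to 0.05; the labels do not say that numbers pair libraries. No value of a named subunit changed sign: 406 values kept their call and 22 lost it, among them those of Grin2c in set 1, Gabra2 in set 2 and Grm4 between the particles. Over all genes, ADM gave 325 calls in DESeq2, 462 with the block, 128 without a count filter, and 332 and 14 without the first or second treated library, the cause of which was not tested. The reconstituted particle against control gave up to 8 genes. Set 1 gave 5997 genes, and 3716 and 3171 without the first or second particle library. In set 2, leaving out the first control library gave 2235 of 3618 genes, leaving out the second reconstituted library gave 2170 of 3316 genes between the particles, and the set difference fell from 5315 to 3498 genes without the second particle library of set 1. The hippocampus, with 1 library a group, has no measure of spread.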

Other observations

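Gabrr2, which encodes a GABA-A rho subunit, was the member that only the hippocampus table could use. It had 10 counts in the control without FC, 34 in the control with FC and 50 with ApoE shRNA and FC, which is 0.55, 1.91 and 2.65 CPM, all under the 100 counts asked for there. The log2 ratio was 1.75 (exact 95% binomial interval 0.75 to 2.98) with FC against no FC and 2.21 (1.27 to 3.41) for ApoE shRNA with FC against control without FC. In the neuron libraries its highest count was 8.

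Subunit shares moved within families as well as levels. Per kb, Gabra3 held 22.9 and 23.4% of the alpha genes in the set 1 controls and 14.0 and 13.9% with particles, and 14.9 and 13.5% against 6.90 and 9.16% in set 2. Gabra5 held 39.5 and 39.6% in the set 1 controls and 35.3 and 37.2% with particles, and 50.5 and 54.0% against 59.6 and 55.9% in set 2. Grin2d held 10.8 and 7.43% of the GluN2 genes in the set 1 controls and 3.38 and 3.45% with particles, and 1.70 and 2.36% against 3.33 and 2.52% in set 2. These shares were not tested.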
